A study of Homo sapiens with 2 samples.

Results

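The population described here was the set of *SPINK2* and *CD34* progenitors of a human endothelial-to-hematopoietic transition culture: 966 of the 7550 cells kept after quality filters, or 12.8% (95% Clopper-Pearson interval 12.0–13.6%). A member had at least 3 unique molecular identifiers (UMIs, each a counted RNA molecule) of *SPINK2* and at least 1 of *CD34*. It also had no more than 2 UMIs summed over *C1QA*, *C1QB* and *C1QC*, fewer than 20 summed over the azurophil granule genes *ELANE*, *PRTN3* and *AZU1*, and fewer than 3 of *CPA3*. The limits on C1q, granule and *CPA3* transcripts left out cells rich in them, as macrophages, granulocyte precursors and mast cell precursors can be. The members were chosen by the UMI counts of these 9 genes, so their levels are given as a description only.

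The culture started from CD34+ cells derived from the induced pluripotent stem cell line iPS11. The cells grew for 5 days in wells that were uncoated or coated with VCAM1, with DLL4, or with both, and the nonadherent cells were harvested, so attached cells were not sampled. The coating proteins were Fc-tagged, 3 wells of each of the 4 conditions were pooled, and each pool was stained with 1 hashtag antibody (0252, 0253, 0254 or 0255). The 4 stained pools were combined in equal cell numbers and sequenced as 1 gene expression library with 1 hashtag library. The sources used here do not tie hashtags to coatings, so the hashtags are given by number and no coating is named. Everything came from 1 cell line and 1 library, with no replicate of a condition and therefore no statistical test. All intervals are at the 95% level (Poisson for summed counts, Clopper-Pearson for shares) and cover counting error only.

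*CD34* encodes a surface sialomucin of hematopoietic stem and progenitor cells that is also made by endothelium. *SPINK2* encodes a small secreted serine protease inhibitor of the Kazal type, known from sperm development and from early blood progenitors. In the endothelial-to-hematopoietic transition, hemogenic endothelial cells round up, lose endothelial junctions and take on a blood fate under RUNX1 and GATA2, and Notch signaling takes part in that step. DLL4 is a Notch ligand: receptor cleavage releases an intracellular domain that joins the DNA-binding protein RBPJ and switches on targets such as *HES1*, *HES4* and *DTX1*. VCAM1 is an adhesion molecule bound by the integrin VLA-4.

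The results below turn on *SPINK2* itself, on the Notch target *HES1* and on the T cell receptor complex gene *CD3D*. For each, the 160 bases before an annotated start are shown 5′ to 3′ on the gene's strand, from RefSeq (GRCh38.p14), with the place of the single exact match in hg19. Capitals mark the RBPJ core TGGGAA or its reverse complement TTCCCA.
SPINK2, chr4:57688036-57688195, minus strand: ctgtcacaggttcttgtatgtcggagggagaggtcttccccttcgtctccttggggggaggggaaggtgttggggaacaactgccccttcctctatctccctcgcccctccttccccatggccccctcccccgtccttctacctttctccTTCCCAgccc
HES1, chr3:193853777-193853936, plus strand: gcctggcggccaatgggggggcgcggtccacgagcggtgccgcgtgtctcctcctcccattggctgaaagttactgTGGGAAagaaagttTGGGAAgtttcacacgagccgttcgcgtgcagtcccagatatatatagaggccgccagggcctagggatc
CD3D, chr11:118213421-118213580, minus strand: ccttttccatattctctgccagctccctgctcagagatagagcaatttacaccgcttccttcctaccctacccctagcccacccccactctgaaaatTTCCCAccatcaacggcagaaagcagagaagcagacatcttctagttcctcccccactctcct

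The *HES1* window held the core at 84 and at 70 bases before the start, the *CD3D* window at 63 and the *SPINK2* window shown at 10. The 160 bases before the other listed *SPINK2* start, chr4:57687868-57688027, not shown, held none. The windows of *HOPX*, chr4:57547463-57547622 and chr4:57522684-57522843, not shown, held none either. The *HES4* window, also not shown, held the core at 76 bases before the start. Of all 35116 RefSeq promoters, 13.7% held it on either strand within 160 bases, so a single match is common. None of the 3 windows shown held the RUNX core TGTGGT, the GATA core AGATAA or the ETS core CCGGAA on either strand. Those letters were present in 7.04%, 5.62% and 11.5% of all promoters. A match is a description of the letters and not a binding site, and no match says nothing of the factor.

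The share of members differed between hashtags. It was 12.0% with hashtag 0252 (256 of 2136 cells, 10.6–13.4%), 7.92% with 0253 (158 of 1996, 6.77–9.19%), 16.2% with 0254 (300 of 1847, 14.6–18%) and 16.0% with 0255 (252 of 1571, 14.3–18%). Hashtags 0254 and 0255 thus lay above 0252 and 0252 above 0253 beyond counting error, while 0254 and 0255 overlapped. The highest share was 2.05 times the lowest (1.71–2.46), 1.36 times with hashtag 0253 left out, and 6.47 times (3.11–13.5) among the 94 members left by a mitochondrial limit of 10%. The same order of the lower pair held among the 3957 cells that met every condition except the one on *SPINK2*, of which 24.4% were members. Here the shares were 21.6% (19.3–24%) with 0252, 16.3% (14.1–18.8%) with 0253, 28.9% (26.2–31.8%) with 0254 and 32.9% (29.6–36.4%) with 0255. Whether the spread among the 4 pools exceeds that among wells of 1 coating cannot be told, since the wells were pooled.

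**Figure D1:**
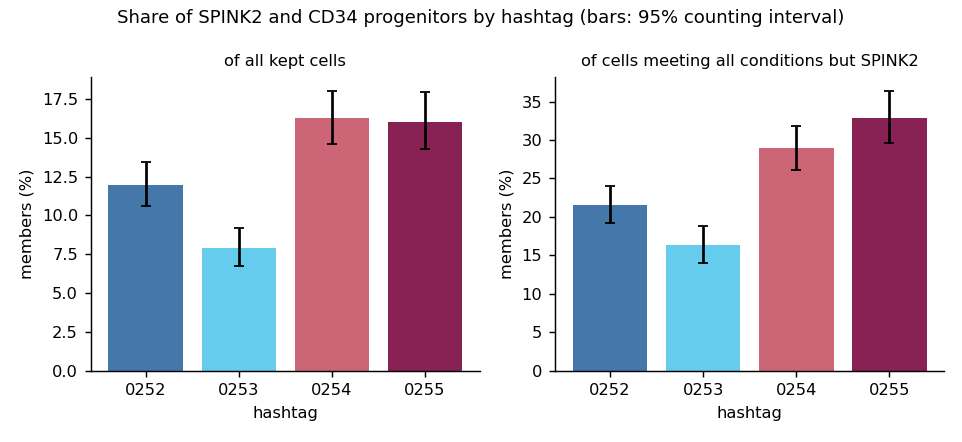
Share of *SPINK2* and *CD34* progenitors (%) by hashtag, among all kept cells and among the cells that met every condition except the one on *SPINK2*; bars are 95% Clopper-Pearson intervals. Hashtag 0253 was lowest in both panels, at 7.92% and 16.3%, and 0254 and 0255 were the highest pair.

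Members were deeply sequenced. They held 21329960 UMIs in all, with a median of 21793 UMIs, 4666.5 genes and 12.3% mitochondrial UMIs per cell. The median over the other 6584 kept cells was 17841.5 UMIs. Between hashtags the members' median depth varied little, at 21659, 22408, 21344 and 21718 UMIs for 0252, 0253, 0254 and 0255. A rule on raw counts favors deep cells. With *SPINK2* and the other counts scaled to the median depth, the share was 9.56%.

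*SPINK2* reached 268 CPM (261–275; each gene's share of the summed UMIs, scaled to a total of 1000000) in members, with 291, 232, 260 and 278 CPM for hashtags 0252, 0253, 0254 and 0255. A member had a median of 5 *SPINK2* UMIs and at most 25, and a median of 5 *CD34* UMIs and at most 19. At the threshold, among the cells that met the other conditions 216 had exactly 3 *SPINK2* UMIs and 296 exactly 2, so the rule cut through a continuous range. Of the 1182 kept cells with at least 3 *SPINK2* UMIs, 216 failed another condition, 178 of them for lack of a *CD34* UMI. Among members, 111 had a single *CD34* UMI. At the granule limit, 6 members had 15 to 19 azurophil UMIs, and 3 cells with 20 to 24 lay just outside.

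Several blood genes outside the rule were at hand to check the label. *SPN* (CD43, a sialomucin of blood cells) was at 245 CPM and *PTPRC* (CD45, the pan-leukocyte phosphatase) at 83.3 CPM, whereas *CDH5* (VE-cadherin of endothelial junctions) was at 1.69 CPM. Counted in every cell thinned to 5000 UMIs, *SPN* was found in 64.1% of members and *CDH5* in 0.518%. The cells were thus blood cells with nearly no transcript of the defining endothelial junction gene. Other endothelial genes were present: *EGFL7*, a secreted vascular factor, was at 396 CPM and *PLVAP*, a protein of endothelial fenestrae, at 70.6 CPM. Genes used as stem cell markers were mixed. *HLF*, a transcription factor of self-renewing stem cells, was at 1.64 CPM, *PROM1* (CD133) at 0.0469 CPM and *THY1* (CD90) at 2.48 CPM, while *AVP*, also used as a stem cell marker, was at 26.3 CPM. Other genes of the stem cell list used below were higher, among them *MSI2* at 74.3 CPM and *HOPX* at 53.6 CPM. The whole list is compared below. The name progenitor was kept because these genes went both ways, and whether stem cells were among the members was not tested.

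The closest comparison was with 2172 cells that met every other condition, *CD34* included, but had no *SPINK2* UMI. Those cells had a median of 18998 UMIs and 14.2% mitochondrial UMIs, somewhat shallower than the members. A log2 ratio below is of CPM with 1 CPM added to each group, and a gene counts as higher or lower when it differed at least 2-fold, with at least 10 CPM in either group and 10 UMIs in both together. By that rule 110 of 8014 genes were higher in members (1.37%) and 310 were lower (3.87%), and the median log2 ratio of all these genes was 0.096. Against all other kept cells, 33 of 8100 genes were higher (0.407%) and 264 lower (3.26%).

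The *CD34* cells without *SPINK2* were mostly of other lineages. Of them 69.3% (1505 of 2172) had more than 5 UMIs summed over 11 erythroid, megakaryocyte, mast cell and eosinophil genes (*HBE1*, *HBZ*, *HBD*, *HBG1*, *HBG2*, *HBA1*, *GYPB*, *GATA1*, *ITGA2B*, *HDC* and *CLC*), against 5.28% of members (51 of 966). These genes were chosen after their values were seen. With such cells left out of both groups, 915 members stood against 667 cells, and of 7896 genes 24 were higher (0.304%) and 95 lower (1.2%), with a median log2 ratio of 0.041. Of the 110 higher genes 22 kept the call, and of the 310 lower genes 69 did. Each list below is therefore given in both comparisons.

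The lower genes were led by the red cell, platelet and mast cell programs. Of 16 erythroid genes that passed the minimum 14 were lower and none higher, with a median log2 ratio of −3.59, and their summed level was 240 CPM in members against 2672 CPM. *HBE1* (embryonic epsilon globin) was at 1.41 against 126 CPM, *HBZ* (embryonic zeta globin) at 3.19 against 175 CPM and *GYPB* (glycophorin B of the red cell membrane) at 3.56 against 225 CPM. The fetal globins *HBG1* and *HBG2* are near-identical copies, so their separate values, 15.1 and 31.6 CPM in members, are uncertain. Of 14 megakaryocyte genes 13 were lower (median −2.26, 285 against 1126 CPM), among them *ITGA2B*, the platelet integrin CD41, at 22.7 against 168 CPM. Of 12 mast, basophil and eosinophil genes 10 were lower (median −2.28, 258 against 1206 CPM), among them *HDC*, the histamine-making enzyme, at 11.2 against 112 CPM. *CPA3*, a mast cell gene of the rule, was limited alike in both groups.

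The factors of these lineages followed. *GATA1*, the master factor of erythroid, megakaryocyte and mast cells, was at 10.4 CPM in members against 147 CPM. *GATA2*, needed for early blood progenitors and mast cells, was at 43.0 against 208 CPM, and *KLF1*, an erythroid factor, at 3.94 against 29.8 CPM. *RUNX1* (74.8 against 76.2 CPM), *SPI1* (PU.1, of myeloid and lymphoid cells; 276 against 241 CPM), *MYB* (54.1 against 44.3 CPM) and *ERG* (22.8 against 19.5 CPM) lay within 2-fold. These 4 factors did not pass the 2-fold limit, and the 3 before them did. Across 27 blood transcription factors 4 were higher and 7 lower (median 0.20), and with lineage cells left out none of 26 was higher and 2 were lower (median 0.03). In that comparison *GATA2* was at 34.5 against 142 CPM and *GATA1* at 4.76 against 23.3 CPM, still lower by more than 2-fold. *GATA1* is 1 of the 11 genes by which cells were left out, as is *HDC*, so their levels there were limited by the exclusion itself. The erythroid list then had 1 lower gene of 5 and the megakaryocyte list 2 of 7, as the exclusion itself removed those cells, while 6 of the 8 mast, basophil and eosinophil genes then tested were lower (medians −0.35, −0.39 and −1.66).

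**Figure D2:**
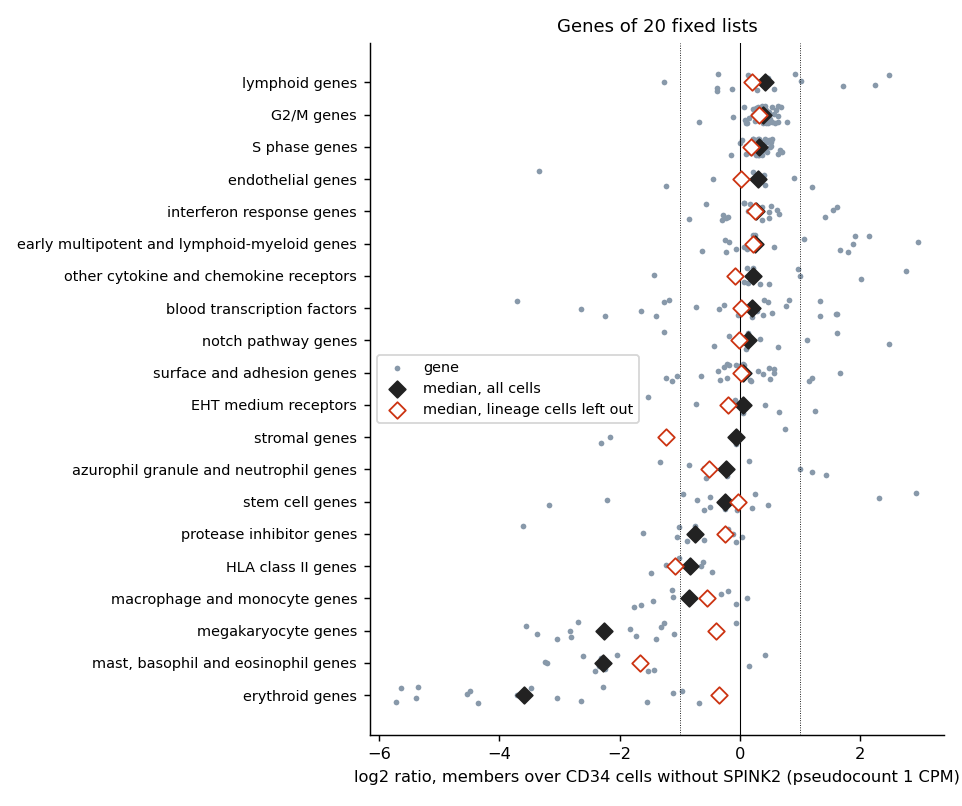
Fixed gene lists in members against *CD34* cells without *SPINK2*: each point is the log2 ratio of CPM (1 CPM added) of 1 gene, filled diamonds are list medians over all cells, open diamonds are medians with the lineage cells left out, and dotted lines mark a 2-fold difference. The erythroid (−3.59), mast cell (−2.28) and megakaryocyte (−2.26) lists lay lowest, and the lymphoid list had a median of 0.43.

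The higher genes included *HOPX*, *HOXA9* and genes of early lymphoid cells. By log2 ratio with 1 CPM added, *CYP1B1* and *IGJ* came first, followed by *HOPX*. Folds printed below are of CPM with nothing added, and their order can differ. *HOPX*, a homeodomain-only protein of quiescent stem cells in several tissues, was at 53.6 CPM (50.6–56.8) in members and 6.13 CPM in *CD34* cells without *SPINK2*, an 8.75-fold difference. In members with hashtags 0252, 0253, 0254 and 0255 it was at 71.2, 51.8, 42.8 and 49.9 CPM, and in the cells without *SPINK2* at 5.53, 4.79, 7.05 and 8.63 CPM. All 4 member values lay above all 4 comparison values. It remained higher with the lineage cells left out, at 55.8 against 12.4 CPM (log2 ratio 2.09). The shares of cells with a UMI, here and below, were not recomputed without the lineage cells. At 5000 UMIs per cell, *HOPX* was found in 22.3% of members, in 2.77% of *CD34* cells without *SPINK2* and in 1.03% of the 968 deep enough cells with more than 2 C1q UMIs. Without thinning these shares were 60.1%, 9.48% and 3.06%, at median depths of 21793, 18998 and 14090 UMIs.

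*HOPX* lies beside *SPINK2* on chromosome 4 and on the same strand (hg19, *HOPX* chr4:57514155-57548043, *SPINK2* chr4:57676026-57687908, both minus). Within 300 kb of *SPINK2*, a window chosen after the values were seen, the other genes above the minimum differed less than 2-fold. *REST* was at 75.8 CPM in members against 73.6, *NOA1* at 17.8 against 18.9, *POLR2B* at 63.7 against 57.9 and *IGFBP7* at 156 against 102. *ARL9* was at 7.78 against 3.59 CPM, below the 10 CPM minimum.

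The *HOXA* cluster specifies posterior identity in blood progenitors, and *HOXA9* drives their expansion. *HOXA9* (chr7:27202057-27214799, minus) was at 21.9 CPM in members against 3.59, *HOXA7* at 9.99 against 1.26 and *HOXA10* at 7.69 against 1.77. *HOXA9* and *HOXA10* overlap in the annotation, so their reads may be split between them. Summed, the *HOXA* genes were at 41.2 CPM in members, 7.1 CPM in *CD34* cells without *SPINK2* and 9.04 CPM in all other kept cells. The *HOXB* genes did not share this, at 154 against 164 CPM, and the *HOXC* and *HOXD* genes were nearly silent in members, at 0.141 and 0.0938 CPM. *HOXA9* was at 35.1, 18.1, 17.8 and 15.7 CPM with hashtags 0252, 0253, 0254 and 0255. *HOXA9* alone of them passed the 10 CPM minimum and counted as higher. With lineage cells left out *HOXA9* stayed higher, with a log2 ratio of 1.59, and *HOXA7*, then at 10.2 CPM, counted as higher too (1.64).

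Of 17 early multipotent and lymphoid-myeloid genes 7 were higher and none lower (median log2 ratio 0.26). Their most abundant example was *C1QTNF4*, a secreted C1q and TNF related protein of lymphoid-primed progenitors, at 262 CPM in members, 69.9 CPM in *CD34* cells without *SPINK2* and 12.7 CPM in cells with more than 2 C1q UMIs. At 5000 UMIs per cell it was found in 67.1% of members, 23.8% of *CD34* cells without *SPINK2* and 4.75% of the cells with C1q. With lineage cells left out 4 of the 17 were higher (median 0.21), and *C1QTNF4* then fell just short, at a log2 ratio of 0.95. Of 15 stem cell genes 2 were higher and 2 lower (median −0.25), and with lineage cells left out 3 were higher and 1 lower (median −0.03). *MECOM*, a stem cell factor, was at 20.3 against 23.0 CPM and *MEIS1*, a HOXA9 partner, at 13.9 against 27.6 CPM. With lineage cells left out *MEIS1* was at 13.7 against 13.3 CPM.

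Other genes with the largest ratios had no single theme. *IGJ*, the antibody joining chain, was at 14.2 CPM against 0.932 (15.2-fold), and *CYP1B1*, an oxidase of the aryl hydrocarbon receptor response, at 34.9 against 2.38 (14.7-fold). *ACY3*, an aminoacylase, was at 247 against 31.3 CPM (7.87-fold), and *CD200*, an inhibitory surface glycoprotein, at 10.0 against 0.978 CPM. *CCR7*, the lymph node homing receptor, was at 21.0 against 2.21 CPM. All 5 remained higher with the lineage cells left out, with log2 ratios of 2.16, 2.27, 1.56, 1.71 and 1.88.

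Lymphoid genes formed the next group. Of 16 that passed the minimum 4 were higher and 1 lower (median log2 ratio 0.43), and with the lineage cells left out 2 were higher and none lower (median 0.21). *CD3D*, *CD3E* and *CD3G* encode the signaling chains of the T cell receptor. *CD3D* (chr11:118209790-118213420, minus) was at 157 CPM (152–163) in members against 27.4 (5.75-fold). *CD3E* was at 28.4 against 5.15 CPM and *CD3G* at 17.4 against 4.59 CPM. With lineage cells left out *CD3D* and *CD3E* kept the call, with log2 ratios of 1.36 and 1.34, and *CD3G* did not, at 0.64. *LTB*, the lymphotoxin beta of lymphoid and inflammatory cells, was at 190 against 42 CPM, but at 530 CPM in cells with more than 2 C1q UMIs.

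Several other lymphoid genes, early ones included, were at or near 0, while others were measured in both groups. *DNTT*, the nucleotide transferase of antigen receptor assembly, had 0 UMIs in 966 members. For a count of 0 an upper limit of 3 counts is taken here, a set limit that is lower than the bound of the Poisson intervals. *RAG1*, the recombinase, was at 0.328 CPM, *IL7R*, the interleukin 7 receptor, at 0.844 CPM and *FLT3*, the receptor of lymphoid-primed progenitors, at 0.750 CPM. *CD79A* and *CD79B*, the signaling chains of the B cell receptor, were at 11.4 against 15.1 CPM and 21.7 against 28.2 CPM, and *LEF1*, a factor of lymphoid development, at 19.4 against 12.8 CPM, all within 2-fold. *LCK* (5.67 against 0.932 CPM) and *GATA3* (5.72 against 0.699 CPM), both T cell genes, were below the 10 CPM minimum in both groups. *CD7*, an early T and natural killer surface marker, was lower in members, at 20.5 against 50.6 CPM, but at 19.8 against 28.5 CPM, within 2-fold, once lineage cells were left out. *CD3* transcripts were therefore measured with *DNTT* and *RAG1* at or near 0.

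**Figure D3:**
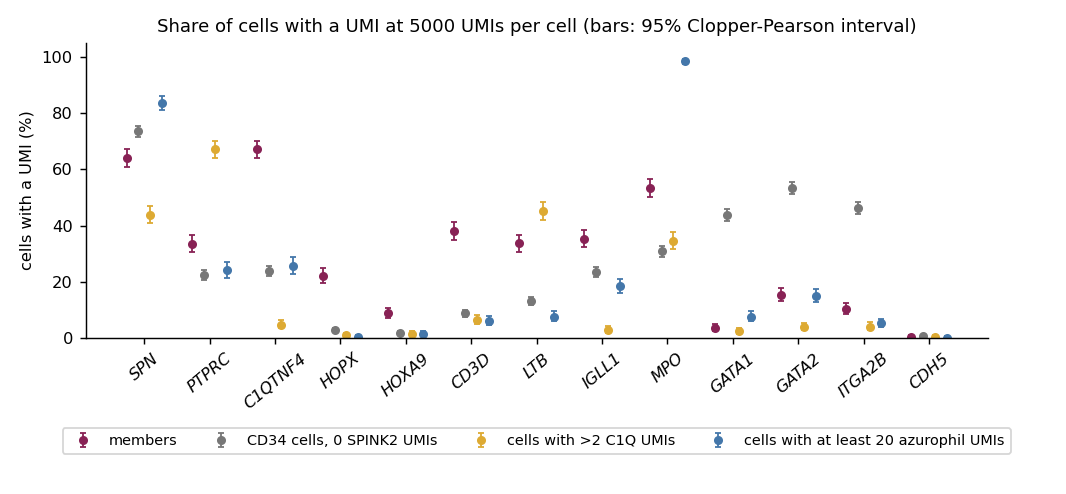
Share of cells (%) with at least 1 UMI of each gene after thinning every cell to 5000 UMIs, with 95% Clopper-Pearson bars, in members, *CD34* cells without *SPINK2*, cells with more than 2 C1q UMIs and cells with at least 20 azurophil granule UMIs. *C1QTNF4* (67.1%), *HOPX* (22.3%) and *CD3D* (38.1%) were highest in members. *MPO* (53.3%) was far below the 98.6% of azurophil cells, a contrast partly fixed by the rule. Most *CD34* cells without *SPINK2* were of other lineages, and the shares were not recomputed without those.

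*CD3D* was found in 38.1% of members at 5000 UMIs per cell, 8.78% of *CD34* cells without *SPINK2*, 6.40% of cells with C1q and 6.01% of azurophil cells. Without thinning these were 64.5%, 19.8%, 14.0% and 15.7%. The shares in *CD34* cells without *SPINK2* include the lineage cells. With those left out of both groups the *CD3D* levels were 160 CPM in members against 62.0 CPM. The members' share lay above that of the cells with C1q and of the azurophil cells. Free RNA was not estimated, and its part in these shares was not tested. Members with a *CD3D* UMI more often had *LTB* (46.7%, 41.5–52.0%) than members without (25.8%, 22.3–29.5%). *HOPX* went the other way, at 17.4% (13.7–21.7%) with *CD3D* and 25.3% (21.8–28.9%) without, and *MPO* did not differ beyond counting error (52.4% and 53.8%). Members with *CD3D* came more often from hashtags 0254 and 0255. Within hashtags 0252, 0253, 0254 and 0255 *LTB* was found in 41.3%, 24.4%, 47.1% and 56.5% of members with *CD3D* and in 24.4%, 25.6%, 24.4% and 29.7% of those without, so the difference lay beyond the intervals with 0254 and 0255 and not with 0252 or 0253. *HOPX* was found in 30.2%, 19.5%, 11.4% and 16.9% with *CD3D* and in 31.1%, 21.4%, 21.3% and 25% without, and the intervals overlapped within every hashtag. The cells shared 1 library, so these shares describe the cells and carry no test.

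The granule gene *MPO* was far below its level in cells with at least 20 azurophil UMIs. The rule kept members under 20 such UMIs, so part of this contrast was fixed by the choice of cells. *MPO*, the peroxidase of azurophil granules, was at 347 CPM in members, 172 CPM in *CD34* cells without *SPINK2*, 219 CPM in cells with C1q and 7588 CPM in cells with at least 20 azurophil UMIs. At 5000 UMIs it was found in 53.3% of members and in 34.5% of cells with C1q. Without thinning the shares were 85.2% and 60.6%. Of 10 azurophil and neutrophil genes 3 were higher and 1 lower (median −0.23), a list partly limited by the rule itself, and with lineage cells left out none was higher and 3 lower, with *MPO* at 358 against 430 CPM. *IRF8*, a factor of monocytes and dendritic cells, was at 28.2 against 8.64 CPM, and at 29.3 against 25.9 CPM once those cells were left out. The direction for *MPO* and the call for *IRF8* thus depended on the lineage cells of the comparison group. Of 10 macrophage genes none was higher and 5 were lower, and of 6 HLA class II genes, which present antigen, 3 were lower (medians −0.84 and −0.83). Without lineage cells, 3 of 9 macrophage genes and 3 of 6 HLA class II genes were lower (medians −0.55 and −1.08). *HLA-DRA* was at 25.5 CPM in members, 35.4 CPM in *CD34* cells without *SPINK2* and 241 CPM in all other kept cells. Against the cells without *SPINK2* it counted as lower only with lineage cells left out, at 25.2 against 65.2 CPM.

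Signal-related and cell cycle genes had list medians within a 2-fold difference. Of 7 receptors for cytokines of the culture medium 1 was higher and 1 lower, and of 13 other cytokine and chemokine receptors 2 were higher and 1 lower (medians 0.05 and 0.22). Without lineage cells, no medium receptor of 8 counted in either direction, and of 13 other receptors 2 were again higher and 1 lower (medians −0.19 and −0.07). *KIT*, the stem cell factor receptor, was at 11.7 against 8.43 CPM and *IL3RA*, the interleukin 3 receptor, at 23.1 against 9.13 CPM, a difference that fell below 2-fold once lineage cells were left out (23.3 against 13.7 CPM). None of 39 S phase genes and none of 53 G2/M genes differed 2-fold, although their medians were 0.33 and 0.39, above the all-gene median of 0.096. Without lineage cells none did either, and the medians were 0.19 and 0.31, again above the all-gene median, then 0.041. *TOP2A*, a topoisomerase of dividing cells, was at 338 against 250 CPM and *MKI67*, the proliferation marker Ki-67, at 171 against 128 CPM. Of 20 interferon response genes 3 were higher (median 0.27) and none was once lineage cells were left out. Of 11 protease inhibitors other than *SPINK2* none was higher and 4 were lower (median −0.74), and with lineage cells left out 1 of 10 was lower. That list mixed serine protease inhibitors with cystatins and TIMPs, which block other proteases, and the 1 lower gene was *TIMP3*. Of 25 surface and adhesion genes 3 were higher and 3 lower (median 0.06), and with lineage cells left out 2 of 26 were higher and none lower (median 0.03). Among endothelial genes 1 of 8 was higher and 2 lower (median 0.31), and with lineage cells left out no endothelial gene of 8 counted in either direction (median 0.02). Among stromal genes 2 of 5 were lower (median −0.07), and then 3 of 6 (median −1.23).

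Against all other kept cells, the lower genes included most of the macrophage and granule lists. Of 14 azurophil and neutrophil genes 11 were lower (1018 against 4422 CPM), of 12 macrophage genes 10, and of 10 HLA class II genes all 10, with a median log2 ratio of −2.80. *SPP1* (osteopontin of macrophages) was at 11.1 against 321 CPM, *S100A8* (calgranulin of neutrophils and monocytes) at 1.64 against 65.4 CPM, and *EPX* (eosinophil peroxidase) at 5.72 against 91.7 CPM. The rule excluded cells rich in C1q, granule and *CPA3* transcripts, so part of this was fixed by the choice of cells. The higher side held 4 of 17 early multipotent genes, 2 of 8 endothelial genes, 2 of 16 lymphoid genes and 2 of 14 stem cell genes. It also held 2 of 14 other receptors, 1 of 11 Notch pathway genes and 1 of 26 surface and adhesion genes. It was led by *HOPX*, *CD200* and *HOXA9*.

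Members were also ordered by their own *SPINK2* count, beside the cells below the threshold: 2172 cells with 0, 819 with 1 or 2, 552 with 3 to 5, 336 with 6 to 10 and 78 with more than 10 UMIs. The level was higher in each class than in the one before for 664 of 8346 genes (7.96%) and lower at each step for 381 (4.57%). Median depth moved with the class, at 18998, 20283, 21068.5, 22018 and 24050.5 UMIs, and its part in these orders was not tested. *HOPX* was at 6.13, 22.2, 43.1, 64.3 and 78.3 CPM over the 5 classes, and *CD200* at 0.978, 3.75, 7.01, 13.4 and 16.1 CPM. *GATA2* went down, at 208, 127, 56.7, 26.9 and 19.9 CPM, and *GATA1* was at 147, 45.5, 12.3, 7.89 and 7.51 CPM.

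Both genes of the first pair thus still differed among the members, between the class of 3 to 5 and that of more than 10. *HOXA9* leveled off (3.59, 9.98, 18.6, 26.3 and 25.2 CPM). *MPO* was highest in the middle class, at 172, 364, 413, 259 and 273 CPM, and *IRF8* was flat from the second class on, at 8.64, 26.8, 28.4, 28.3 and 26.8 CPM. With lineage cells left out, the class with 0 UMIs was at 430 CPM for *MPO* and 25.9 CPM for *IRF8*. All members were then at 358 and 29.3 CPM. The low first value of both genes thus depended on the lineage cells, and the classes between were not recomputed for single genes. Of 17 lymphoid genes 8 were higher at every step, as were 8 of 18 early multipotent genes and 21 of 54 G2/M genes, and 6 of 16 erythroid genes were lower at every step. With lineage cells left out of every class, 418 of 8207 genes were higher at every step (5.09%) and 269 lower (3.28%), among the former 7 of 17 lymphoid, 9 of 18 early multipotent and 18 of 54 G2/M genes.

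**Figure D4:**
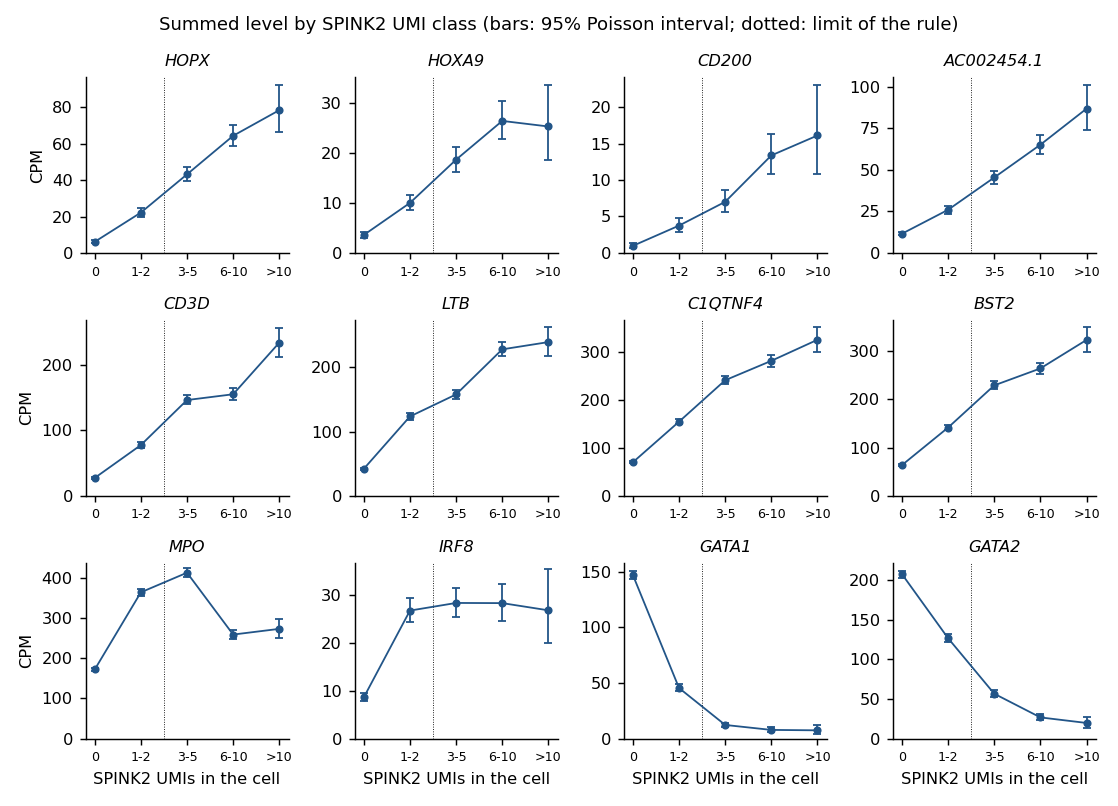
Level (CPM, with Poisson 95% bars) of 12 genes in cells with 0, 1 or 2, 3 to 5, 6 to 10 and more than 10 *SPINK2* UMIs; the dotted line marks the threshold of the rule, and *BST2* was added after its values were seen. *HOPX* went from 6.13 to 78.3 CPM and *GATA2* from 208 to 19.9 CPM, whereas *IRF8* was flat above the first class. Most cells of the first class were of other lineages. Without those it was at 12.4 CPM for *HOPX*, 142 for *GATA2*, 430 for *MPO* and 25.9 for *IRF8*.

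Within the members, the hashtags differed in a modest number of genes. Each hashtag was set against the other 3, for genes with at least 20 CPM in either group and a 1.5-fold difference. With 0252, 25 of 5586 genes were higher (0.448%) and 33 lower (0.591%). With 0253, 25 of 5603 were higher (0.446%) and 34 lower (0.607%). With 0254, 4 of 5570 were higher (0.0718%) and 5 lower (0.0898%), and with 0255, 17 of 5607 were higher (0.303%) and 12 lower (0.214%). Hashtag 0254 therefore stood least apart from the rest.

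Several genes set hashtags 0252 and 0253 apart from 0254 and 0255. *CD3D* in members was at 75.4 CPM (68.4–83.0) with 0252, 68.7 (60.4–77.9) with 0253, 197 (186–208) with 0254 and 251 (238–265) with 0255. The lower pair overlapped, and the higher pair lay far above it. *CD3E* was at 18.5, 14.5, 36.1 and 38.5 CPM and *CD3G* at 5.86, 3.34, 21.2 and 34.0 CPM over the same hashtags. At 5000 UMIs per cell *CD3D* was found in 24.6%, 25.9%, 46.7% and 49.2% of members. Higher values with 0254 and 0255 than with 0252 and 0253 were also measured outside the members. In *CD34* cells without *SPINK2*, *CD3D* was at 9.37, 12.2, 42.2 and 74.2 CPM, in cells with C1q at 5.5, 11.2, 53.0 and 48.3 CPM, and in azurophil cells at 11.6, 13.4, 43.1 and 26.9 CPM. The members' level was above that of the cells with C1q and of the azurophil cells under every hashtag.

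Some Notch targets were also higher with 0254 and 0255. *HES1*, a transcriptional repressor, was at 7.63, 9.46, 29.7 and 31.8 CPM in members with 0252, 0253, 0254 and 0255. *HES4*, a related repressor, was at 4.62, 6.68, 21.5 and 32.5 CPM. *DTX1*, a ubiquitin ligase that Notch induces, was at 1.78, 1.95, 5.18 and 12.3 CPM, below the 20 CPM minimum. *NRARP*, a feedback inhibitor of the pathway, was not split, at 11.2, 11.1, 11.7 and 14.1 CPM, and neither was *RBPJ* itself, at 91.6, 90.2, 92.4 and 92.5 CPM. In *CD34* cells without *SPINK2* the *HES1* values were 44.1, 55.6, 51.5 and 61.2 CPM, without that split and above every member value. *HES4* there was at 6.44, 6.17, 11.6 and 28.2 CPM, which does follow it. Most cells of that group were of other lineages, and neither gene was recomputed by hashtag without them. Pooled over hashtags, *HES1* was lower in members, at 21.0 against 51.7 CPM, and *NOTCH1*, the receptor, was higher, at 42.6 against 19 CPM. With lineage cells left out both calls were lost, with *HES1* at 19.8 against 23.2 CPM and a log2 ratio of 0.75 for *NOTCH1*. Of the 11 Notch pathway genes 3 were higher and 1 lower (median 0.14), and with lineage cells left out 1 was higher, none was lower, and the median was −0.01. The list also holds *CD3D*, which was that 1 gene and is counted among the lymphoid genes too.

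**Figure D5:**
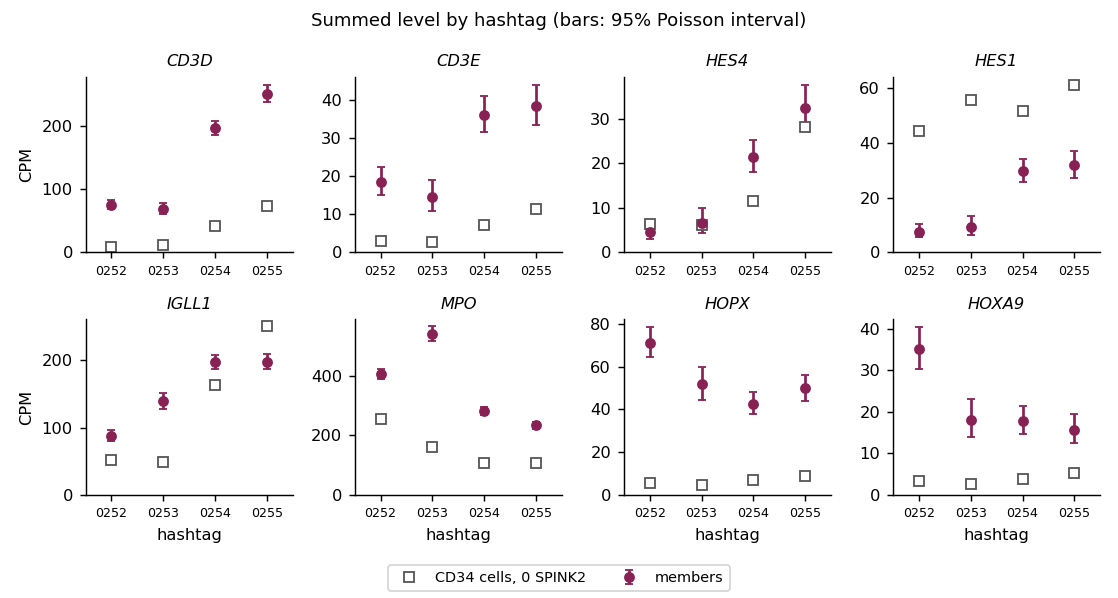
Level (CPM) of 8 genes by hashtag in members (circles with Poisson 95% bars) and in *CD34* cells without *SPINK2* (squares, no bars). *CD3D*, *CD3E*, *HES4*, *HES1* and *IGLL1* were higher in members with 0254 and 0255, *MPO* was highest with 0253 (543 CPM), and *HOPX* and *HOXA9* were highest with 0252.

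*IGLL1*, the surrogate light chain of early lymphoid cells, was at 87.9, 139, 197 and 198 CPM in members, and at 51.3, 49.1, 164 and 251 CPM in *CD34* cells without *SPINK2*. *SOX4*, a factor of early lymphoid and progenitor cells, was at 128, 147, 262 and 264 CPM. A few myeloid genes were instead highest with 0253. *MPO* was at 407, 543, 283 and 233 CPM in members, *CEBPA*, the factor of granulocyte commitment, at 30.0, 40.9, 17.7 and 15.2 CPM, and *RNASE2*, an eosinophil ribonuclease, at 27.3, 52.9, 25.4 and 16.6 CPM. In cells with C1q *MPO* was at 362, 256, 107 and 98.9 CPM, in the order of the members except for 0252 and 0253. Summed over lists, lymphoid genes were at 617, 615, 848 and 944 CPM, Notch pathway genes at 517, 520, 728 and 809 CPM, and azurophil and neutrophil genes at 1007, 1362, 958 and 877 CPM. *CD3D* is in both of the first lists. Without it the lymphoid sum was 541, 546, 651 and 693 CPM and the Notch sum 442, 452, 531 and 557 CPM. Of the azurophil and neutrophil sum *MPO* made up 34% over all members, and its part in the order of the hashtags there was not tested. Macrophage and monocyte genes were at 1103, 1003, 1079 and 1042 CPM, of which *AIF1*, a cytoskeletal protein of macrophages, made up 62.4% over all members, and at 446, 367, 400 and 372 CPM without it.

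Hashtag 0252 stood apart in a further set. The erythroid gene *HBD* had its largest ratio, at 20.1 CPM against 5.42 CPM over the other 3 hashtags. With lineage cells left out, *HBD* over all members was below both of these values, while 247 of the 256 members with 0252 remained. The *HBD* level with 0252 thus rested at least in part on few cells. *HBD* is 1 of the 11 genes by which cells were left out, and it was not recomputed by hashtag without them. *CYP1B1* was at 58.4, 14.5, 24.7 and 36.3 CPM over 0252, 0253, 0254 and 0255, *IGJ* at 26.6, 10.3, 9.9 and 9.03 CPM, *CX3CR1*, the fractalkine receptor, at 41.7, 11.4, 18.7 and 20.05 CPM, and *HLA-DRA* at 43.8, 14.7, 20.4 and 19.7 CPM. *CCR7* was instead shared by the lower pair of the *CD3D* split, at 29.5, 29.5, 14.9 and 13.9 CPM, and *ID3*, an inhibitor of lymphoid factors, was low with 0253 only, at 49.2, 12.5, 47.1 and 34.5 CPM. *ACY3*, at 184, 112, 257 and 385 CPM, was higher with 0254 and 0255 than with 0252 and 0253, as *CD3D* was.

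A few hashtag differences rested on single cells. With 0253, 408 of the 454 *PPBP* (platelet basic protein) UMIs were in 1 member and 262 of the 348 *HBG2* UMIs in 1 member. With 0254, 124 of the 243 *IGF2* (insulin-like growth factor 2) UMIs were in 1 member. In all 6 members had at least 20 UMIs of such a gene, and without them the calls between hashtags numbered 154 in place of 155. The ratio of variance to mean of depth-adjusted counts over members had a median of 1.02 over 7641 genes, most of them too sparse for this ratio to show differences between cells. It was above 1 in genes found in nearly all members too, such as *GSTP1* (15.3) and *MALAT1* (11.6), 2 genes chosen after their values were seen. Among the genes described here it was above 1 for *MPO* (5.86), *LTB* (5.84), *ACY3* (4.75), *CCR7* (4.33), *IGLL1* (3.59), *HLA-DRA* (3.26), *CYP1B1* (2.95), *SOX4* (2.80), *IGJ* (2.56), *CD3D* (2.51) and *TOP2A* (2.49), among others.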

How the data were processed

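The gene expression library (10x Genomics 3′ chemistry) was deposited by the authors as UMI counts, 32738 genes by 10836 barcodes, made per the labels with Cell Ranger 6.0.1 on hg19. The authors' deposited hashtag calls gave 8488 barcodes with a single hashtag. Of these, 7550 with at most 36000 UMIs, 6000 genes and 18% mitochondrial UMIs were kept. UMIs were summed over the cells of a group and divided by the group's total (CPM). Doublets were those of the hashtag calls; Scrublet (scanpy 1.11.5) was an alternative. For equal depth, cells were thinned once at random to 5000 UMIs. The members, the 20 gene lists (467 genes) and the comparisons were chosen with earlier results of these data known. Named genes were those of the rule and the lists, the 10 largest ratios each way in each of the 2 main comparisons and the 5 largest each way per hashtag; *SOX4*, *BST2* and the neighbours of *SPINK2* were chosen after their values were seen. Cells of 1 library are not replicates, so no test was run. The ratio and thinning steps were tested on simulated data. Python 3.11.15, numpy 2.4.6, scipy 1.17.1 and pandas 2.3.3 were used. Promoters came from RefSeq and were placed on hg19 by exact match.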

Additional observations from a re-analysis of the deposited data

Results flagged for a closer look

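Barcodes outside the kept cells also met the rule. Among the 809 barcodes without a hashtag call that passed the depth and mitochondrial limits, 51 did (6.30%, 4.73–8.21%). Their median was 18788 UMIs, with *SPINK2* at 242 CPM and *CD34* at 262 CPM. Among the 834 such barcodes called doublets, 104 did (12.5%, 10.3–14.9%), with a median of 24063 UMIs, *SPINK2* at 250 CPM and *CD34* at 192 CPM. They were singled out because they hold signal in barcodes that no comparison used.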

How the results depend on the processing

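No paired analysis was possible because the 4 conditions came from 1 library with no replicate. The share of members was 16.7% with at least 2 *SPINK2* UMIs, 7.35% with at least 5, 11.3% with at least 2 *CD34* UMIs and 9.56% with counts scaled to the median depth, and 11.7 to 14.5% with each hashtag left out. The ratio of the highest to the lowest share was 6.47 at a mitochondrial limit of 10%, which left 94 members, and 1.36 to 2.05 with each hashtag left out (1.36 without 0253).

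The genes higher and lower against *CD34* cells without *SPINK2* numbered 32 and 116 at a minimum of 50 CPM, 214 and 588 with no minimum, 386 and 544 at 1.5-fold and 35 and 158 at 3-fold. At the mitochondrial limit of 10% 537 were lower, with a pseudocount of 5 CPM 68 were higher, and with lineage cells left out, chosen after seeing the data, 24 and 95. Against all other kept cells they were 91 and 601 at the mitochondrial limit of 10%, 11 and 92 at 50 CPM, 67 and 594 with no minimum, 139 and 498 at 1.5-fold, and 13 and 159 at 3-fold. With each hashtag left out the 4 counts ran from 106 to 118, 278 to 323, 29 to 38 and 257 to 279. The 155 calls between hashtags became 36 at 2-fold and 42 at 50 CPM.

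The genes higher at every *SPINK2* step numbered 418 with lineage cells left out. Of 379 recomputed list medians 305 moved by less than the spread between hashtags. In all 16 changed sign, and in 6 of these the median over all cells had itself been farther from 0 than that spread: transcription factors −0.16 at the mitochondrial limit of 10% and −0.027 at 50 CPM, endothelial genes −2.38 at that limit and −0.20 with no minimum, and, with lineage cells left out, the Notch pathway −0.0083 and other receptors −0.071. The causes were not tested. Shares of cells with a UMI fell with thinning. Without thinning and at 10000 UMIs, in that order, they were 64.5% and 51.8% for *CD3D*, 85.2% and 70.4% for *MPO*, 12.7% and 7.30% for *GATA1*, and 60.1% and 37.9% for *HOPX*. Scrublet called 5 members doublets.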
